A study of Homo sapiens with 4 samples.

Results

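The genes described here encode the coats, tethers, cargo receptors and SNARE proteins that move cargo between the endoplasmic reticulum (ER), the Golgi and later compartments. They are 87 of the 15575 genes in the count table of U251 cells, an established human glioblastoma (GBM) line. They were selected by a pattern of symbols that uses no measured value, although the pattern was written with earlier results of these data known. The symbols are those of the COPII coat (SAR1, SEC16, SEC23, SEC24 and SEC31 genes), the COPI coat (COPA, COPB, COPE, COPG, COPZ and ARCN1), the TRAPP tether (TRAPPC genes), the TMED and KDEL receptors, the SNAREs (STX, VAMP, SNAP, SEC22, GOSR, BET1, YKT6 and USE1) and the proteins that take SNARE complexes apart (NSF, NAPA and NAPG).

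The study compared 2 libraries of U251 cells given control shRNA by lentivirus (Ctrl, with the vector name pGreen in their labels) with 2 libraries of U251 cells given shRNA against PRMT3, a protein arginine methyltransferase (PRMT3-KD). All 4 libraries came from the same cell line, and the labels name no other treatment. The shRNA used for these libraries, and whether libraries 1 and 2 of a group came from separate cultures, are not given in the sources used here, so p-values measure the spread between these libraries, which may be technical. The model is thus a single line with reduced PRMT3.

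Transport out of the ER starts when SAR1 recruits the SEC23-SEC24 layer and then the SEC13-SEC31 layer of COPII, with SEC24 binding cargo. COPI, a coatomer complex recruited by ARF1, carries proteins back to the ER and between Golgi cisternae, and the KDEL receptors return escaped ER residents in these vesicles. TRAPP complexes tether vesicles and activate Rab GTPases, and SNARE proteins on vesicle and target membranes zip together to fuse them. Many of these proteins have paralogs that can take the same place in the coat or SNARE complex.

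Total counts per library lay between 24804250 and 29756313. The Ctrl libraries differed little more than counting error, for which a chi-square divided by its degrees of freedom is near 1: the value was 1.42 in Ctrl (13709 genes) and 63.6 in PRMT3-KD (13670 genes). PRMT3 itself was at 19.3 and 19.5 CPM (read counts scaled to the library total with TMM factors) in Ctrl and at 3.03 and 1.58 CPM in PRMT3-KD, a log2 fold change of -3.08 ± 0.314 (standard error, SE) with an adjusted p of 0.0177 in edgeR's quasi-likelihood test. Of the glioma lineage markers, VIM (4453 to 5399 CPM), CD44 (1645 to 2271 CPM), NES and SOX2 were abundant, while S100B lay at 1.93 to 2.82 CPM. GFAP was at 13.1 and 14.3 CPM in Ctrl and at 1.26 and 5.39 CPM in PRMT3-KD, and NES was at 459 CPM in PRMT3-KD library 1 against 779 to 826 CPM elsewhere. Markers of blood, epithelial and oligodendroglial cells (PTPRC, CDH1, MBP and MOG) were at 0.512 CPM or less, the neuronal gene SYT1 was at 10.03 to 14.3 CPM, and EPCAM, PECAM1 and RBFOX3 were not among the genes of the table. The part of the GFAP and NES differences in the results that follow was not tested.

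Of the 87 genes, 82 had enough counts to be tested, and 12 of them passed an adjusted p of 0.05 and a change of over 1.5-fold in edgeR's quasi-likelihood test. That is 14.6% of those tested, beside 10.9% of all 13172 genes tested. Decreases made up 10 of the calls (12.2% of the 82, beside 5.97% for all genes), and increases the other 2 (2.44%, beside 4.97% for all genes). The genes that fell were STX6, TMED4, SAR1B, COPA, TMED7, VAMP7, SEC24D, BET1L, COPZ1 and TRAPPC10, and those that rose were STX3 and STX12. In bulk RNA, fewer cells of a type and less RNA per cell cannot be told apart. At an adjusted p under 0.05 with any fold change there were 18 genes, or 22.0%, beside 17.3% of all genes. The family was also more highly expressed, with a median Ctrl level of 55.28 CPM beside 28.51 CPM for all genes tested. Its median SE was smaller (0.0982 beside 0.135), and its median absolute log2 fold change was 0.273 beside 0.293. The part of expression level in the shares given for the family was not tested.

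The other 70 tested genes lay mostly on the opposite side of 0. Of these, 52 had a log2 fold change above 0 and 18 below 0, with a median of 0.186, and 66 of the 70 were within 1.5-fold. Over all 82 the median was 0.16, beside 0.005 for all genes tested, and against the Ctrl mean alone the libraries PRMT3-KD 1 and 2 had medians of 0.158 and 0.084. Both PRMT3-KD libraries lay outside the range of the Ctrl libraries in 63 of 82 genes, or 76.8%, beside 67.1% of all genes. The family thus held a few decreases past the threshold among many genes slightly above their Ctrl level that did not pass it.

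The calls rest on both Ctrl libraries. Without Ctrl library 1 or Ctrl library 2, the edgeR calls were lost, in the family and over all genes. In each case DESeq2 kept only the calls of STX6 and TMED4 in the family. The changes themselves moved little, since 12 and 11 of the 12 genes stayed beyond 1.5-fold in the same direction. Without PRMT3-KD library 1 or 2, 11 of the 12 genes stayed beyond 1.5-fold in the same direction in each case. The exceptions were SEC24D without library 1 (log2 fold change -0.541) and STX12 without library 2 (0.525).

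**Figure D1:**
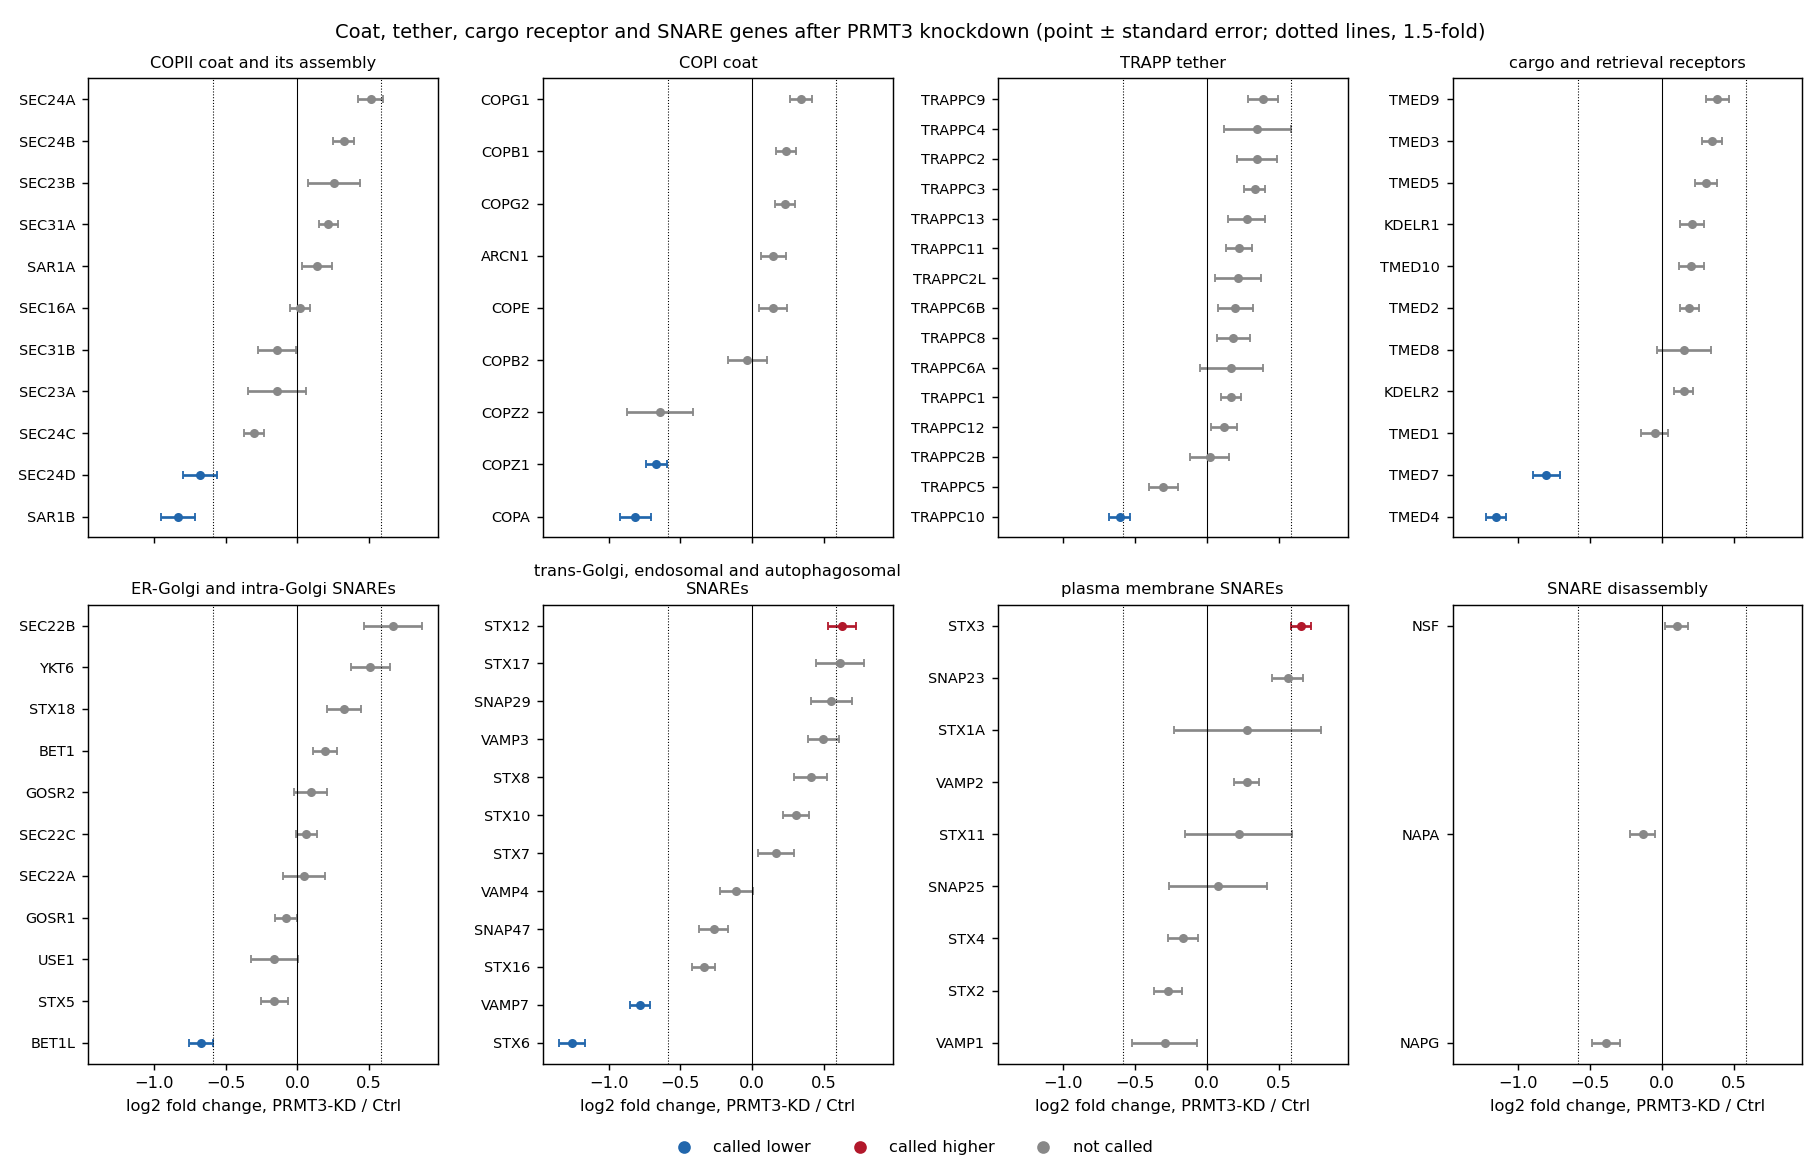
Log2 fold change of PRMT3-KD over Ctrl (x axis) for 81 of the 82 tested genes, in 8 panels by role, with points for the edgeR estimate and bars for its standard error. Dotted lines mark 1.5-fold, blue points are the 10 genes that fell, red points the 2 that rose and grey points the rest, most of which lie to the right of 0.

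Sequence features were looked up for the transcripts and promoters of these genes. The sequence CAGCTCA was searched in 3′ UTRs because an earlier scan of these same data had listed it, so its association with lower genes is not independent evidence. It was present in the 3′ UTR of 17 of 81 tested genes of the family with a UTR of at least 50 bases (21%), beside 2214 of all 12619 such genes (17.5%). The 17 genes had a median log2 fold change of -0.111 with 3 decreases and 0 increases, and the 64 without it had a median of 0.191 with 7 decreases and 2 increases. Over all genes the medians were -0.112 and 0.034, with 11.7% lower and 3.25% higher among genes with the sequence and 4.82% lower and 5.53% higher among those without it. Genes with the sequence also had longer 3′ UTRs, with medians of 3336 against 1321 bases in the family and 3215 against 1136 bases over all genes, and the part of length was not tested. The sites of the 3 genes that fell, and of SEC22B, which had the largest log2 fold change above 0 among the 82 genes, are shown with CAGCTCA in capitals and flanking bases in lower case, in the sense of the transcript (GENCODE 44 on GRCh37). They lie in the 3′ UTR of the canonical transcript at chr1:180944823-180944851 (STX6, exon 8, minus strand), chr7:44618398-44618426 (TMED4, exon 5, minus strand), chr11:203126-203154 (BET1L, exon 4, minus strand) and chr1:145117658-145117686 (SEC22B, exon 11, plus strand).
STX6: ttgttgctaaaCAGCTCAgtaacacactt
TMED4: tggcgtgatctCAGCTCActggcaacatc
BET1L: ccctaaccctcCAGCTCAgccctgtacac
SEC22B: gtggagaggggCAGCTCAttgttgagagt

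The TMED4 site stood in a context that recurred elsewhere. The 14 letters ATCTCAGCTCACTG, a run close to that of Alu repeats, surrounded the sequence in TMED4 and in 331 of the 2214 genes in all (15%). They did not surround it in STX6, BET1L or SEC22B. These longer letters were chosen after the sites were seen. Of the 331 genes, 9.06% were called lower with a median log2 fold change of -0.013, and of the 1883 with other letters around CAGCTCA, 12.1% were called lower with a median of -0.136.

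Promoters were read as the 300 bases from 250 before to 50 after the RefSeq start of transcription (GRCh38.p14 windows), which were at hand for 71 of the tested genes of the family and for 10103 genes in all. Motifs of ER stress factors were searched on both strands, since ATF6 and XBP1 are known to activate coat and cargo receptor genes. The ERSE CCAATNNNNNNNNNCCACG was in 0 of the 71 promoters and in 0.148% of all, and ERSE-II ATTGGNCCACG in 0 of 71 and 0.109%. The UPRE core TGACGTGG was in 7 of 71 promoters (9.86%) and in 101 of all 10103 (1.0%). The 7 genes are COPA, COPB1, COPB2 (with 2 copies), SEC16A, SEC23A, SEC24A and STX5. Their median log2 fold change was -0.034, with COPA alone called lower, and of the 101 genes 5 were called lower and 5 higher, with a median of 0.042. They are shown on the strand of their gene with the motif in capitals, where CCACGTCA is the motif read on the other strand. The windows lie at chr1:160343224-160343259 (COPA), chr11:14499838-14499873 (COPB1), chr3:139389822-139389857 and chr3:139389631-139389664 (COPB2), chr9:136484704-136484739 (SEC16A), chr14:39103218-39103253 (SEC23A), chr5:134648592-134648627 (SEC24A) and chr11:62832046-62832081 (STX5), on the minus strand except for SEC24A.
COPA: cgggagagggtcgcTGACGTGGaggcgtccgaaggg
COPB1: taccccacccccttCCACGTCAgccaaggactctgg
COPB2, upstream copy: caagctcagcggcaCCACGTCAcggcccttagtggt
COPB2, downstream copy: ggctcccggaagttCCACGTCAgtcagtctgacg
SEC16A: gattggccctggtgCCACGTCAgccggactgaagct
SEC23A: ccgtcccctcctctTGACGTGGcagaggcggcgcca
SEC24A: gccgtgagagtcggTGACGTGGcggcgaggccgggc
STX5: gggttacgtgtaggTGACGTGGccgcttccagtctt

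The motif was also in 4 of 54 promoters (7.41%) of other genes of early secretory transport, ARF1, GBF1, SCFD1 and KDELR3. The letters ACGTG inside it, which are also the core of the hypoxia response element bound by HIF1A, were in 36 of the 71 promoters (50.7%) and in 26.5% of all, a search added after the first motifs were seen. Of the 36 genes, 6 were called lower and 0 higher, with a median log2 fold change of 0.097. Of all 2680 genes with these letters, 167 were called lower and 123 higher, with a median of 0.002. Promoters that hold the motif thus spanned the range from COPA, which fell, to SEC24A, with a log2 fold change of 0.51. A match of letters is not a bound site.

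In the COPII coat, 11 of 12 genes were tested, of which SAR1B and SEC24D fell and 0 rose, with a median log2 fold change of 0.016. SAR1B (chr5:133936839-133984961, GRCh37, minus strand), a GTPase that starts coat assembly, was at 61.1 and 54.2 CPM in Ctrl and at 34.6 and 30.2 CPM in PRMT3-KD. Both PRMT3-KD values lay below both Ctrl values, with a log2 fold change of -0.83 ± 0.116 (SE) and an adjusted p of 0.0228 in edgeR's test. Its paralog SAR1A was at 143 and 139 CPM in Ctrl and at 142 and 168 CPM in PRMT3-KD, and these groups overlapped (adjusted p of 0.399). The share of SAR1B in the summed SAR1 counts was thus 29.9% (95% exact binomial interval 28.7 to 31.1) and 28.1% (26.9 to 29.3) in Ctrl and 19.6% (18.4 to 20.8) and 15.3% (14.4 to 16.3) in PRMT3-KD. Such intervals cover counting error only, and 2 libraries against 2 cannot go below p = 0.333 in an exact two-sided permutation test. SAR1A has 4 pseudogenes in the annotation, which could share its reads.

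The 4 SEC24 genes, which encode the cargo-binding subunit, had values on both sides of their Ctrl levels. SEC24D (chr4:119643978-119759838, minus strand) was at 106 and 105 CPM in Ctrl and at 59.4 and 72.3 CPM in PRMT3-KD, with a log2 fold change of -0.68 ± 0.117 and an adjusted p of 0.032. SEC24A (chr5:133984475-134063599, plus strand) was at 74.0 and 73.7 CPM in Ctrl and at 99.1 and 111 CPM in PRMT3-KD, with a log2 fold change of 0.51 ± 0.0879 and an adjusted p of 0.0319, under the 1.5-fold threshold. SEC24B was at 51.2 and 52.8 CPM against 64.0 and 66.1 CPM (log2 fold change 0.32, adjusted p of 0.0523), and SEC24C was at 221 and 222 CPM against 175 and 184 CPM (-0.30, adjusted p of 0.0538). None of the 4 had overlapping groups, which was also so for 67.1% of all genes tested. In shares of the SEC24 counts, SEC24D went from 23.4% and 23.2% in Ctrl to 14.9% and 16.7% in PRMT3-KD, SEC24C from 48.9% in both to 44% and 42.5%, SEC24A from 16.4% and 16.2% to 25% and 25.6%, and SEC24B from 11.3% and 11.6% to 16.1% and 15.2%. Per kilobase of the canonical transcript, the mean level of SEC24D was 26.2 CPM in Ctrl against 16.4 CPM in PRMT3-KD, and that of SEC24A was 11.6 against 16.5 CPM. The levels of this pair per length, which were apart in Ctrl, were thus close in PRMT3-KD.

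SAR1B and SEC24A are head-to-head neighbours whose annotated starts overlap by 487 bases on opposite strands, with 389 bases of shared exon. Whether the counting used strand is not stated, so reads from these bases cannot be assigned to either gene. The neighbours lay on opposite sides of their Ctrl values in both PRMT3-KD libraries. The shared bases lie at the 5′ ends, and the 3′ UTRs of the canonical transcripts span 5801 bases in SAR1B and 2815 bases in SEC24A.

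The other COPII genes were not called. SEC31A, of the outer layer, was at 198.5 and 196 CPM in Ctrl and at 230.3 and 228 CPM in PRMT3-KD (adjusted p of 0.0903), and the SEC23 pair was split by library. SEC23A was at 158 and 155 CPM in Ctrl, at 114 CPM in PRMT3-KD library 1 and at 169 CPM in library 2, while SEC23B was at 60.3 and 63.5 CPM in Ctrl, at 86.1 CPM in library 1 and at 61.6 CPM in library 2. In PRMT3-KD library 1, SEC23A lay below and SEC23B above both Ctrl values, while in library 2 SEC23A lay above them and SEC23B between them. The share of SEC23A in the pair was 57% in PRMT3-KD library 1 against 71% to 73.3% in the other libraries. SEC16A, the scaffold of ER exit sites, lay between 113 and 117.5 CPM in all 4 libraries, while SEC16B had 1 to 10 counts and was not tested. SEC13, a coat gene outside the family by symbol, lay between 206 and 213 CPM.

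In the COPI coat, all 9 genes were tested, and COPA and COPZ1 fell while 0 rose. COPA (chr1:160258384-160313356, minus strand), the alpha subunit, was at 239 CPM in both Ctrl libraries and at 124 and 148 CPM in PRMT3-KD, with a log2 fold change of -0.81 ± 0.108 and an adjusted p of 0.0214. COPZ1 (chr12:54694986-54745630, plus strand), the zeta subunit, was at 102 and 98.7 CPM in Ctrl and at 63.3 CPM in both PRMT3-KD libraries, with a log2 fold change of -0.67 ± 0.0707 and an adjusted p of 0.0182. The groups did not overlap for either gene, and the PRMT3-KD libraries nearly coincided for COPZ1 and were farther apart for COPA. COPA overlaps 188 exon bases of NCSTN on the other strand.

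The remaining coatomer genes other than COPZ2 had log2 fold changes near or above 0, and 0 of them were called. COPG1, the gamma subunit, was at 171 and 164 CPM in Ctrl and at 206 and 218 CPM in PRMT3-KD, with a log2 fold change of 0.34 and an adjusted p of 0.047 under 1.5-fold. COPB1 (0.23), COPG2 (0.23), ARCN1 (0.15) and COPE (0.14) had log2 fold changes above 0 with adjusted p-values of 0.0827, 0.0966, 0.287 and 0.328, and COPB2 one of -0.03 with an adjusted p of 0.882. COPB2 was at 226 and 227 CPM in Ctrl and at 194 and 249 CPM in PRMT3-KD, so the groups overlapped, and ARCN1 was at 219 and 226 CPM against 232 and 260.1 CPM. Coatomer assembles with a fixed number of each subunit. Per kilobase of canonical transcript, COPA and COPB1 were at 45 and 47.7 CPM in Ctrl and at 25.6 and 56.1 CPM in PRMT3-KD, and COPZ1 went from 53.2 to 33.5 CPM. The subunit RNAs were not at equal levels in Ctrl, with COPG1 at 54.4, ARCN1 at 55.7, COPB2 at 69.3 and COPE at 119 CPM per kilobase. Protein levels of the subunits were not tested here. COPZ2, the paralog of COPZ1, was at 2.996 and 3.13 CPM in Ctrl and at 2.20 and 1.73 CPM in PRMT3-KD (adjusted p of 0.123), and its share of the COPZ counts was 2.65% to 3.37% in all 4 libraries. The low COPZ1 values were thus not accompanied by higher COPZ2 values.

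Among the TRAPP genes, TRAPPC10 fell, and it was the only call among 15 tested of 16. TRAPPC10 (chr21:45432190-45526433, plus strand), which with TRAPPC9 defines the TRAPPII complex that acts at the Golgi, was at 67.3 and 67.5 CPM in Ctrl and at 43.8 and 44.6 CPM in PRMT3-KD. Its log2 fold change was -0.61 ± 0.0723 with an adjusted p of 0.0197. TRAPPC10 shares 3625 of its 11951 exon bases with a same-strand entry annotated as an artifact, which could share its reads. TRAPPC9, its partner, was at 13.1 and 13.9 CPM in Ctrl and at 18.3 and 17.1 CPM in PRMT3-KD, the largest log2 fold change above 0 of the group (0.39, adjusted p of 0.0723). The genes of this pair thus lay on opposite sides of their Ctrl values.

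Of the 14 other TRAPP genes tested, 13 had a log2 fold change above 0, beside 6643 of 13172 among all genes, and 0 of the 13 passed the test. TRAPPC3, a core subunit, was at 63.4 and 59.8 CPM in Ctrl and at 77.0 and 77.9 CPM in PRMT3-KD (log2 fold change 0.33, adjusted p of 0.0514). TRAPPC5, another core subunit, was the exception, at 33.0 and 30.5 CPM against 24.7 and 26.7 CPM (-0.30, adjusted p of 0.102). TRAPPC4 was 1.55-fold higher in PRMT3-KD library 1 than in library 2. TRAPPC3L, with 2 to 5 counts per library, was not tested.

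**Figure D2:**
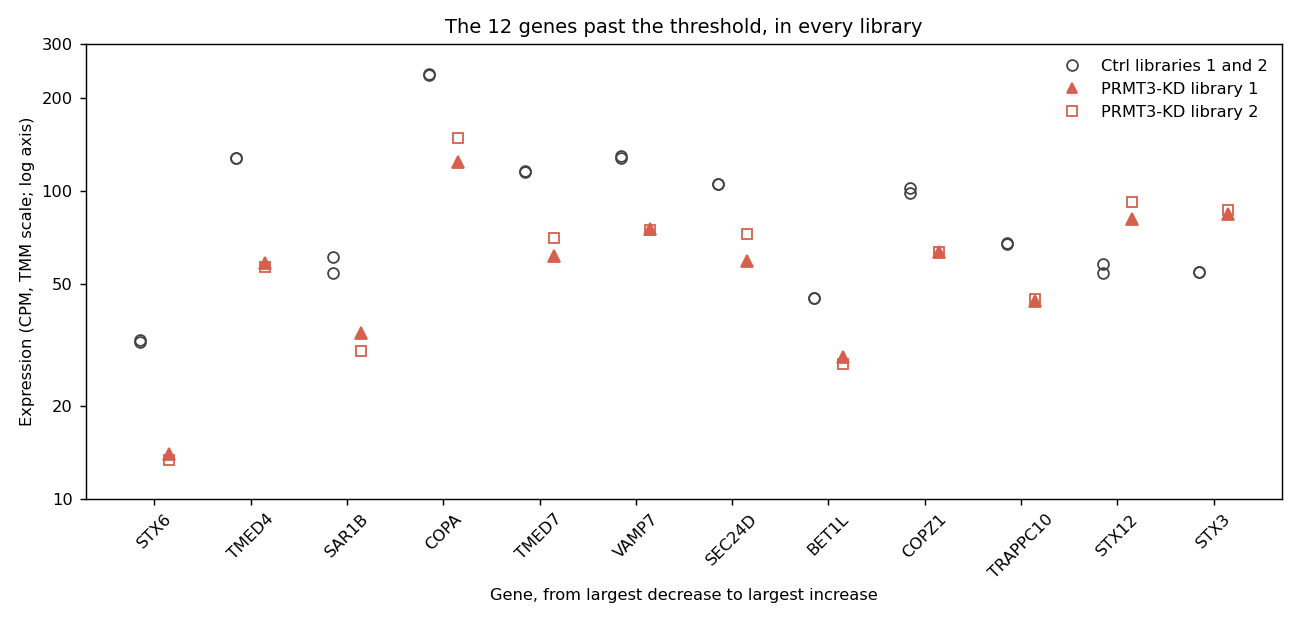
Expression in CPM (TMM scale, log axis) of the 12 genes past the threshold in every library, with circles for the Ctrl libraries, triangles for PRMT3-KD library 1 and squares for library 2. The groups do not overlap for any of the 12, which is not independent of their call from the same libraries. The Ctrl circles nearly coincide for most.

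Among cargo and retrieval receptors, paralogs had values on opposite sides of Ctrl. Of 12 genes, 11 were tested, TMED4 and TMED7 fell and 0 rose. TMED4 (chr7:44617493-44621886, minus strand), a p24 protein of COPII and COPI vesicles, was at 128 CPM in both Ctrl libraries and at 58.3 and 56.6 CPM in PRMT3-KD, which is 2.22-fold lower, with a log2 fold change of -1.15 ± 0.0701 and an adjusted p of 0.014. TMED9, its p24 alpha paralog, was at 239 and 228 CPM in Ctrl and at 318 and 292 CPM in PRMT3-KD, with a log2 fold change of 0.39 and an adjusted p of 0.0435 under 1.5-fold. The share of TMED4 in the counts of the pair went from 34.9% (34 to 35.8) and 35.8% (34.9 to 36.8) in Ctrl to 15.5% (14.8 to 16.2) and 16.2% (15.5 to 17) in PRMT3-KD.

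The p24 gamma paralogs TMED7 and TMED3 had a like pattern. TMED7 (chr5:114948907-114968689, minus strand) was at 116 and 115 CPM in Ctrl and at 61.6 and 70.3 CPM in PRMT3-KD, with a log2 fold change of -0.81 ± 0.0933 and an adjusted p of 0.0192. TMED3 was at 131 and 133 CPM in Ctrl and at 168 CPM in both PRMT3-KD libraries, with a log2 fold change of 0.35 and an adjusted p of 0.0376 under 1.5-fold. TMED7 made up 47% and 46.3% of the counts of the pair in Ctrl and 26.8% and 29.5% in PRMT3-KD. TMED7 shares 810 exon bases with the readthrough gene TMED7-TICAM2 on the same strand, so its count is uncertain to that extent.

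The other p24 genes and the KDEL receptors were not called by edgeR. TMED2 was at 256 and 260.2 CPM in Ctrl and at 296 and 293 CPM in PRMT3-KD (adjusted p of 0.116), TMED10 was at 203 and 196 CPM against 218 and 243 CPM (adjusted p of 0.163), and TMED5 was at 93.5 and 88.3 CPM against 110.4 and 114 CPM (adjusted p of 0.0586). KDELR2 was at 444 and 437 CPM in Ctrl and at 491 and 488 CPM in PRMT3-KD (log2 fold change 0.15, adjusted p of 0.176), and KDELR1 at 279.5 and 277 CPM against 304 and 340 CPM (0.21, adjusted p of 0.155). KDELR3, which the symbols of the family leave out, was at 29.7 and 29.4 CPM against 16.0 and 23.0 CPM (-0.60, adjusted p of 0.102), and limma-voom with group weights called it lower. Its share of KDEL receptor counts went from 3.95% in both Ctrl libraries to 1.97% and 2.71%. TMED6 had 3 to 6 counts and was not tested.

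**Figure D3:**
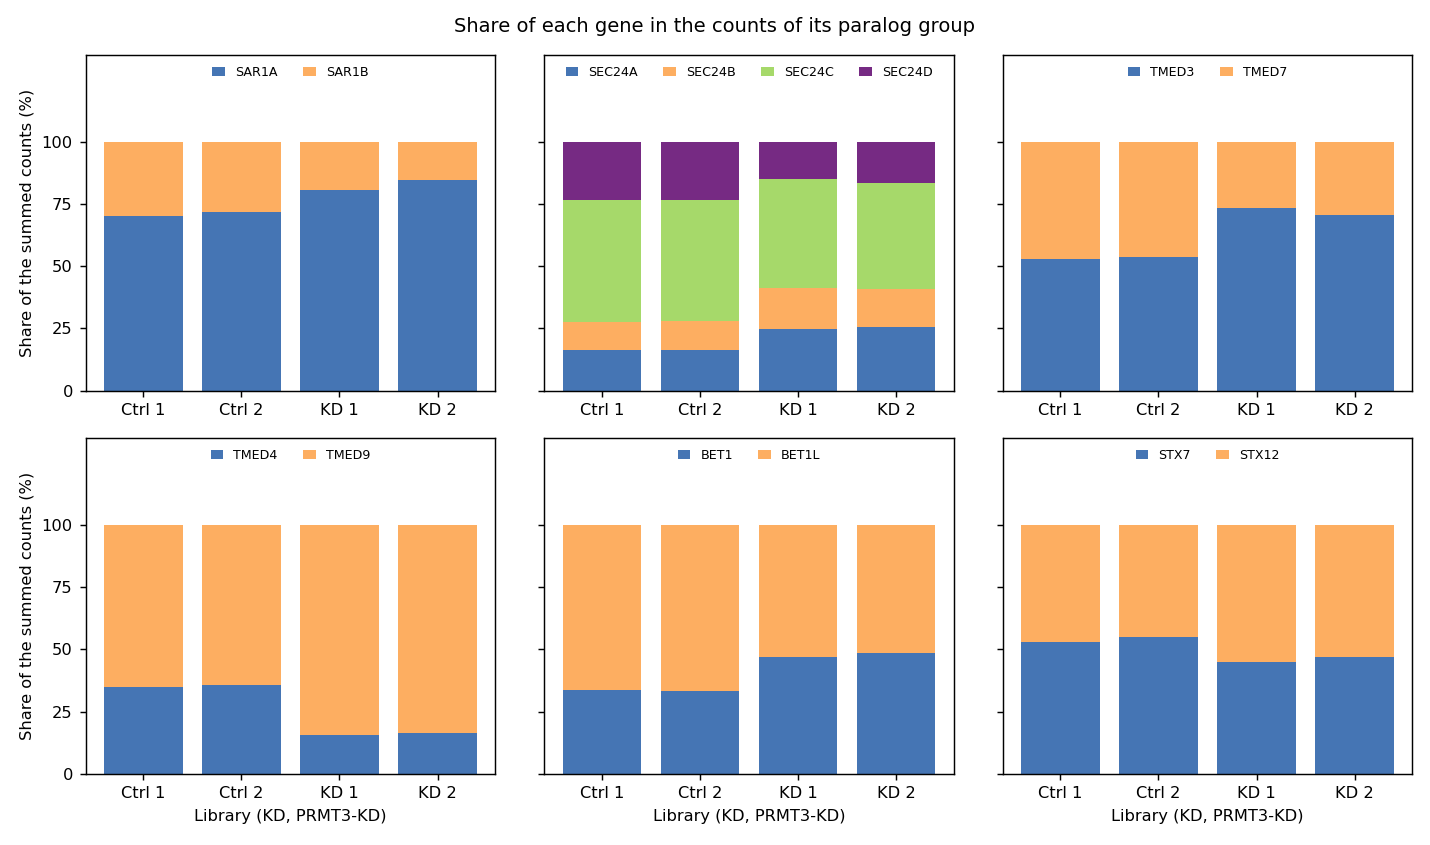
Share of each gene in the summed counts of its paralog group (y axis, percent) for each of the 4 libraries, as stacked bars for SAR1, SEC24, TMED3 and TMED7, TMED4 and TMED9, BET1 and BET1L, and STX7 and STX12. In each panel both PRMT3-KD bars differ from both Ctrl bars in the same direction, as for TMED4, from 34.9% and 35.8% to 15.5% and 16.2%. Each panel holds a called gene, so a shift of share follows in part from the call. The COPZ pair, which also holds one, is not shown: COPZ1 made up 97.2% and 96.9% in Ctrl and 96.6% and 97.3% in PRMT3-KD.

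Of the SNAREs of ER-Golgi and intra-Golgi transport, all 11 were tested and only BET1L fell. BET1L (chr11:167784-207399, minus strand), a SNARE of retrograde transport within the Golgi, was at 44.8 CPM in both Ctrl libraries and at 28.9 and 27.4 CPM in PRMT3-KD, with a log2 fold change of -0.67 ± 0.0833 and an adjusted p of 0.0202. BET1, its paralog in fusion with the cis-Golgi, was at 22.7 and 22.4 CPM in Ctrl and at 25.7 and 25.9 CPM in PRMT3-KD (0.19, adjusted p of 0.187). BET1L made up 66.3% and 66.6% of the counts of the pair in Ctrl and 52.9% and 51.5% in PRMT3-KD. BET1L shares 867 exon bases with an annotated pseudogene on its strand. STX5, the Golgi syntaxin with which both pair, was at 26.6 and 29.3 CPM against 24.99 and 25.03 CPM in PRMT3-KD (adjusted p of 0.294).

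SEC22B and YKT6, longin SNAREs that both pair with STX5, had values above both Ctrl libraries in both PRMT3-KD libraries without passing edgeR's test. SEC22B was at 299.99 and 293 CPM in Ctrl, at 379.7 CPM in PRMT3-KD library 1 and at 561 CPM in library 2, with a log2 fold change of 0.67 ± 0.201 and an adjusted p of 0.0879. DESeq2 and limma-voom with group weights called it higher, with adjusted p-values of 0.0109 and 0.0122. The annotation holds 3 near-identical pseudogenes (SEC22B2P, SEC22B3P and SEC22B4P), so its reads may have been split. YKT6 was at 226 and 219 CPM in Ctrl, at 356 CPM in library 1 and at 277 CPM in library 2 (0.51, adjusted p of 0.0723). The PRMT3-KD libraries were in opposite order for these genes. The summed level of the 11 genes was 899.7 and 885.7 CPM in Ctrl and 1120 and 1191 CPM in PRMT3-KD. This sum is weighted by SEC22B and YKT6, the 2 genes with the highest mean CPM of the group. The median log2 fold change of the 11 was 0.063, and against the Ctrl mean libraries 1 and 2 had medians of 0.182 and -0.054.

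Of 12 tested SNAREs of the trans-Golgi, endosomes and autophagosomes, STX6 and VAMP7 fell and STX12 rose. That is 25% of the group, beside 22.2% of the COPI genes, 18.2% of the COPII genes and 10.9% of all genes tested. STX6 (chr1:180941848-180992257, minus strand), a syntaxin of retrograde transport from endosomes to the trans-Golgi, was at 32.7 and 32.2 CPM in Ctrl and at 13.9 and 13.3 CPM in PRMT3-KD. It was 2.39-fold lower, with a log2 fold change of -1.25 ± 0.092 and an adjusted p of 0.0142, the largest decrease among the 82 genes. VAMP7 (chrX:155111008-155173433, plus strand), a longin SNARE of fusion with lysosomes and the plasma membrane whose gene lies in a pseudoautosomal region, was at 128 and 130.1 CPM in Ctrl and at 75.3 and 74.8 CPM in PRMT3-KD, with a log2 fold change of -0.78 ± 0.0683 and an adjusted p of 0.0151. STX16, a partner of STX6, was at 174 and 176 CPM in Ctrl and at 132 and 145 CPM in PRMT3-KD (-0.34, adjusted p of 0.0548), and VAMP4, another partner, was at 17.8 and 16.5 CPM against 16.8 and 14.995 CPM (-0.11, adjusted p of 0.529). Neither partner passed the test, and the difference from STX6 itself was not tested.

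STX12 (chr1:28099730-28150954, plus strand), a syntaxin of recycling endosomes, was at 58.0 and 54.2 CPM in Ctrl and at 81.0 and 92.0 CPM in PRMT3-KD, with a log2 fold change of 0.62 ± 0.0985 and an adjusted p of 0.0276. STX7, its paralog of late endosomes, was at 65.3 and 66.5 CPM in Ctrl and at 66.0 and 81.8 CPM in PRMT3-KD (adjusted p of 0.392), and STX12 made up 47.1% and 44.9% of the counts of the pair in Ctrl and 55.1% and 52.9% in PRMT3-KD. VAMP3, a SNARE of recycling, was at 111 and 107 CPM in Ctrl and at 167 and 141 CPM in PRMT3-KD, with a log2 fold change of 0.49 and an adjusted p of 0.0482 under 1.5-fold. STX17 and SNAP29, which fuse autophagosomes with lysosomes, had log2 fold changes of 0.61 and 0.55 and adjusted p-values of 0.0733 and 0.0676. STX17 was at 17.9 and 19.6 CPM in Ctrl and at 24.6 and 32.7 CPM in PRMT3-KD, and DESeq2 and limma-voom called it higher with adjusted p-values of 0.0295 and 0.0394. VAMP8, their partner, had 5 to 10 counts and was not tested.

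At the plasma membrane, 10 of 11 SNARE genes were tested, STX3 rose and 0 fell. STX3 (chr11:59480929-59573355, plus strand), a syntaxin of apical exocytosis, was at 54.4 CPM in both Ctrl libraries and at 84.2 and 86.9 CPM in PRMT3-KD, with a log2 fold change of 0.65 ± 0.0713 and an adjusted p of 0.0187. SNAP23, a widely expressed partner of plasma membrane syntaxins, was at 63.1 and 61.7 CPM in Ctrl and at 84.3 and 99.97 CPM in PRMT3-KD, with a log2 fold change of 0.56 and an adjusted p of 0.0381, just under 1.5-fold. VAMP1 was at 11.3 and 13.0 CPM against 7.99 and 11.8 CPM (-0.30, adjusted p of 0.4). STX1A, the syntaxin of neuronal exocytosis, was at 34.7 and 38.4 CPM in Ctrl, at 66.1 CPM in PRMT3-KD library 1 and at 22.8 CPM in library 2, so that its values lay on either side of Ctrl (adjusted p of 0.724). VAMP5 had 0 or 1 count in each library.

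The 3 genes for SNARE disassembly were not called by edgeR, DESeq2 or limma-voom. One of them, NAPG, had an unadjusted p under 0.05 in edgeR, as did 4948 of all 13172 genes tested. NSF, the ATPase, was at 81.9 and 82.8 CPM in Ctrl and at 91.7 and 85.1 CPM in PRMT3-KD, and NAPA, its adaptor, was at 123 and 129 CPM against 121 and 109 CPM. NAPG, the gamma adaptor, was at 58.0 and 58.5 CPM against 41.4 and 47.4 CPM (-0.39, adjusted p of 0.0614). All 3 had groups that did not overlap, as did 67.1% of all genes tested.

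The PRMT3-KD libraries differed from each other more than the Ctrl libraries did. The median absolute log2 difference between libraries 1 and 2 of the 82 genes was 0.0417 in Ctrl and 0.161 in PRMT3-KD. Only 4 genes had PRMT3-KD libraries more than 1.5-fold apart, STX1A (2.89-fold), STX11 (1.83-fold), SNAP25 (1.8-fold) and TRAPPC4 (1.55-fold), all of them higher in library 1. The 10 genes that fell lay below both Ctrl values in either PRMT3-KD library, which is not independent of their call from the same libraries.

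**Figure D4:**
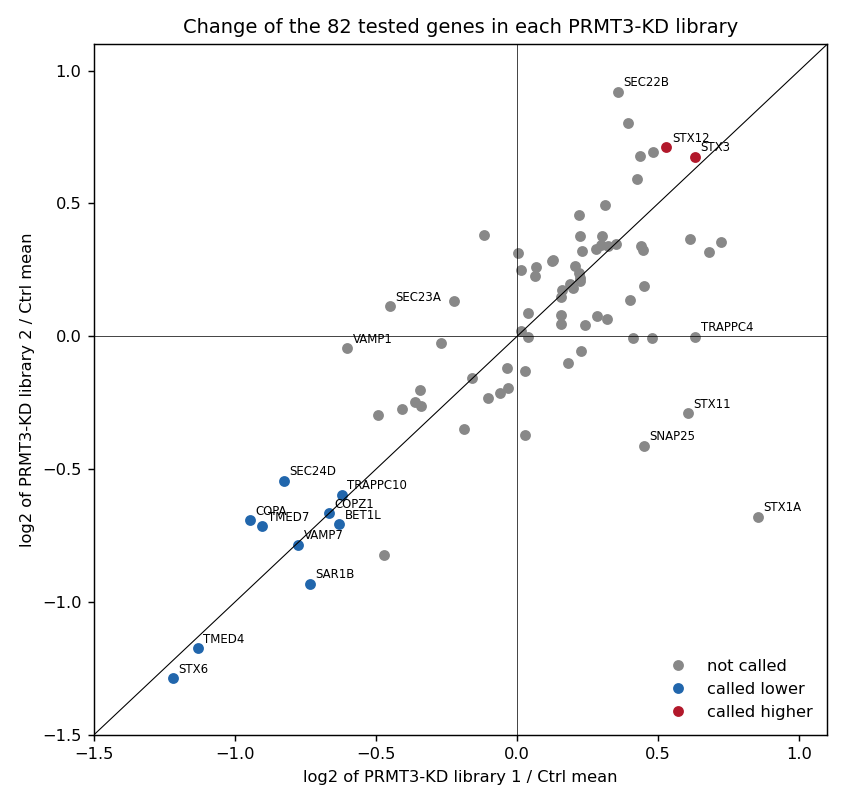
Log2 ratio to the Ctrl mean in PRMT3-KD library 1 (x axis) and library 2 (y axis) for each of the 82 tested genes, with the diagonal marking equal change. The 10 genes that fell (blue) lie near the diagonal at the lower left, and STX1A lies farthest from it. Both axes share the same Ctrl libraries.

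Early secretory transport also depends on genes that the symbols leave out, and a list of 68 of them was examined, of which 67 were tested. It held 7 calls (10.4%), beside 10.9% of all genes tested, so the list was called at about the rate of all genes. Of the calls, 5 were lower (7.46%, beside 5.97% of all genes) and 2 higher (2.99%, beside 4.97%). Its median log2 fold change was 0.012, beside 0.005 for all genes. Among COPI regulators, ARFGAP3, which triggers hydrolysis of the GTP bound to ARF1 on COPI vesicles, was at 57.7 and 54.5 CPM in Ctrl and at 19.6 and 26.4 CPM in PRMT3-KD (-1.29, adjusted p of 0.0208). ARF3 was at 156 and 159 CPM against 83.1 and 99.3 CPM (-0.79, adjusted p of 0.0227). ARF1 lay between 354 and 367 CPM in all libraries. Among COPII partners and cargo proteins, ERGIC1 was at 249 and 248 CPM against 127 and 168 CPM (-0.75, adjusted p of 0.041), and BCAP31, an ER membrane cargo receptor, at 293 and 296 CPM against 187 and 175 CPM (-0.70, adjusted p of 0.018). ERGIC2, a partner of ERGIC1 in cycling between ER and Golgi, was at 59.6 and 57.0 CPM against 97.4 and 80.3 CPM (0.61, adjusted p of 0.0395).

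CREB3L2, a membrane-bound transcription factor known to activate SEC23A and other COPII genes, was at 151 CPM in both Ctrl libraries and at 61.2 and 79.9 CPM in PRMT3-KD (-1.10 ± 0.146, adjusted p of 0.0215). Its relative CREB3L1 was at 30.7 and 28.4 CPM against 8.38 and 16.3 CPM (-1.25, adjusted p of 0.0672 in edgeR), and DESeq2 and limma-voom called it lower. ATF6 was at 107 and 104 CPM in Ctrl and at 151 and 152 CPM in PRMT3-KD, with a log2 fold change of 0.52 and an adjusted p of 0.0211 under 1.5-fold, and XBP1 lay between 62.5 and 67.1 CPM. VPS33B, an SM protein of late endosomes, was at 5.31 and 7.02 CPM against 11.5 and 10.6 CPM (0.84, adjusted p of 0.0492), a call that did not hold with limma-voom, library totals only, no filter on low counts, or the replicate number as a block (adjusted p-values of 0.0758, 0.0669, 0.0501 and 0.0582). The COG and Dsl tethers (12 genes) and the golgins and Rab GTPases (9 genes) held 0 calls in edgeR, DESeq2 or limma-voom. At an unadjusted p under 0.05 in edgeR there were 3 and 4 of their genes, beside 4948 of all 13172 genes tested.

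The sums of CPM by role moved less than the called genes did. The COPII genes summed to 1205 and 1195 CPM in Ctrl and to 1138 and 1223 CPM in PRMT3-KD, and the COPI genes to 1303 CPM in both Ctrl libraries and to 1223 and 1328 CPM in PRMT3-KD, so the groups overlapped for both coats. The cargo and retrieval receptors summed to 1947 and 1923 CPM in Ctrl and to 2083 and 2127 CPM in PRMT3-KD. The TRAPP genes summed to 425.2 and 424.5 CPM against 470.8 and 439.2 CPM, and the plasma membrane SNAREs to 268.2 and 272.6 CPM against 346.2 and 325.2 CPM. The endosomal group of SNAREs summed to 721.9 and 718.4 CPM against 723.2 and 733.5 CPM, and the genes of SNARE disassembly, below Ctrl in both libraries, to 263.4 and 270.3 CPM against 254.2 and 241.5 CPM. Over all 87 genes the sums were 7034 and 6993 CPM in Ctrl and 7359 and 7608 CPM in PRMT3-KD, so the decreases of single subunits did not lower the total.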

How the data were processed

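RNA-seq was made from total RNA of 2 Ctrl and 2 PRMT3-KD libraries of U251 cells, grouped by their labels. The authors aligned reads to hg19 with TopHat and deposited whole-number gene counts from Cufflinks without normalization, with versions, annotation and strand setting not given in the sources used here. The table held 15576 rows, of which 1 duplicate was removed. All genes were fitted in R 4.3.3 with edgeR 4.0.16 (filterByExpr with a minimum count of 10 and minimum total of 15, TMM factors, glmQLFit, glmQLFTest), with Benjamini-Hochberg adjustment of p over 13172 genes. Genes were called at an adjusted p under 0.05 and over 1.5-fold. CPM are on the TMM scale, and standard errors were derived from the F statistic.

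The symbol pattern of the members uses no measured value, but it and the lists were chosen with earlier results of these data known. Named with values are called genes, 2 genes with high mean CPM per role, and genes with an adjusted p under 0.05 below 1.5-fold. Also named are genes whose call changes with DESeq2 or the replicate block, the largest change in each direction per role, and untested genes. Tested paralogs of called genes are named only within the paralog groups that were set up. No such group was set up for STX3 or STX6, so STX2, STX4 and STX10 are not among the genes named with values. Every called gene of the pathway list is named, and a few further list members were chosen after their values were seen. Alternatives were DESeq2 1.42.0, limma-voom (limma 3.58.1) with group weights, upper-quartile factors, library totals only, DESeq2 size factors, other filters, the replicate block, other fold thresholds and each library left out. DESeq2 with a Ctrl library left out was added after the data were examined. Each test was tried on simulated data with known changes. Annotation was from GENCODE 44 lifted to GRCh37, which held all 87 genes, and promoters from RefSeq, searched with Python 3.11.15 and pandas 2.3.3. Identity between paralog proteins was not computed, and 1 gene is not reported here by name.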

Additional observations from a re-analysis of the deposited data

How the results depend on the processing

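The 12 genes of the family past the threshold numbered 12 with upper-quartile factors, library totals only, DESeq2 size factors, either filter and the replicate block. They numbered 14 with DESeq2 and limma-voom, and the same 12 were included in each case. Of all genes tested, 13.9% were called with DESeq2, 12.8% with limma-voom and 9.08% to 11.5% under the other settings. DESeq2 and limma-voom raised the increases from 2 to 4 (SEC22B and STX17 added), no fold threshold raised them to 8, and a 2-fold threshold left 0 increases and 2 decreases, 2 in all. Leaving out single libraries gave 0 to 18 calls, 0 to 7 of them increases and 0 to 11 decreases, and DESeq2 without a Ctrl library gave 2 calls, 2 decreases and 0 increases in each case. When a library was left out, the lone one was assumed to vary like the other group, so these counts of calls do not measure stability. Without a PRMT3-KD library, calls were also more frequent over all genes than with all 4 libraries. The pathway list had 7 calls, 13 with no fold threshold, 2 at 2-fold, 2 with DESeq2 without a Ctrl library, and 0 to 15 with single libraries left out (15 without PRMT3-KD library 2). ERGIC2 missed the call with library totals only (adjusted p of 0.0715).

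The median log2 fold change of the 82 genes was 0.126 to 0.166 under the other scalings, tests and filters, while library totals only moved the median of all genes to -0.026, and it was 0.086 to 0.166 with single libraries left out (0.086 without PRMT3-KD library 1). PRMT3 ranged from -3.607 to -2.679 with single libraries left out, with adjusted p-values of 0.0764 and 0.0604 without Ctrl library 1 and 2. COPG1, TMED3, TMED9 and VAMP3 had adjusted p-values of up to 0.109, 0.0972, 0.0888 and 0.0925 under the other tests, scalings and filters and the block, and 0.368 to 0.563 without a Ctrl library. The cause of these moves was not tested. The replicate numbers are shared only as numbers: across genes, the differences between libraries 1 and 2 in Ctrl and PRMT3-KD had a correlation of 0.0379. With the replicate block, 12 genes of the family were past the threshold, 10 lower and 2 higher, and 1464 of all genes against 1441. Depth limits the 5 untested genes, with 0 to 10 counts.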
